A study of Mus musculus with 89 samples.

Results

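The genes described here build or switch on the motile cilium. Of 45 genes named for this role, 40 were found on the array under their current or an earlier symbol, out of 17097 genes with a probe set of their own. Each was read from its brightest probe set on average over the 89 arrays. They were named by their role in the cilium, with earlier results of these data known. Mcidas, Dnaaf3, Tekt4, Armc3 and Spata18 had no probe set of their own here, and Dnai1 and Dnai2 are listed on the array as Dnaic1 and Dnaic2. The test across all genes took 38 members. Dnah5, an outer dynein arm heavy chain, passed the level of log2 4.45 set for testing on 1 array, in BALB/c mice 168 h after allergen with air, and Efhb, a protein inside the axonemal microtubules, on none, so both were left out.

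Motile cilia cover the multiciliated cells of the airway and beat to move mucus out of the lung. Their shaft, the axoneme, is a ring of microtubule doublets around a central pair, and outer and inner dynein arms slide the doublets while radial spokes and the nexin-dynein regulatory complex control the beat. FOXJ1 and the RFX factors turn on the genes of this machine, and dynein arms are put together in the cytoplasm by dedicated assembly factors before they are carried into the cilium.

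The study exposed lungs of male mice aged 7 to 8 weeks to ozone, to allergen and to both, in C57BL/6, in BALB/c and in SP-D-/- mice, which lack surfactant protein D and whose background strain the labels do not give. Every mouse breathed air or 3 ppm ozone for 2 h and was sampled 12 h later, and the control group breathed air and received no allergen. Allergen (Af) was the mould Aspergillus fumigatus, injected into the abdomen on days 0 and 7 to sensitize the mice and given intranasally on day 13 as the challenge. The allergen groups were Af 24 h, sampled 24 h after the challenge and kept in air, Af 96 h with ozone, and Af 168 h, which comes both in air and with ozone. The 18 groups held 2 to 6 arrays each. For C57BL/6 there were 6 air, 6 ozone and 4 Af 24 h arrays, 5 at 96 h, and 4 and 6 at 168 h without and with ozone. The SP-D-/- numbers were 5 for air, 4 for ozone, 6 for Af 24 h, 6 at 96 h and 5 and 4 at 168 h, and those of BALB/c were 5, 2, 5, 6, 6 and 4 in the order just used. There was no allergen group without ozone at 96 h and none with ozone at 24 h, and none of the air and ozone groups had been sensitized, so sensitization and challenge cannot be told apart. RNA came from the left lobe, a bulk sample in which fewer ciliated cells and less of an RNA per cell cannot be told apart. Only the replicate numbers say that arrays of a group are separate samples, so the p-values measure the spread between these arrays.

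Values are log2 signals of Affymetrix HT Mouse430PM arrays, normalized by the authors, and a difference of 1 is a doubling of signal. The mean of 8 alveolar type 2 genes ran from 7.78 to 11.07 over the 89 arrays, and Foxj1 lay between 5.02 and 6.80 on the 16 air arrays, so lung tissue and its ciliated cells were both represented. Sftpd, the gene of surfactant protein D, read 4.42 to 7.76 on the 29 SP-D-/- arrays that matched their label and 9.20 to 11.24 on the matching C57BL/6 and BALB/c arrays. The part of Sftpd that was deleted is not given, so its probe set alone cannot check the knockout. On 5 arrays Sftpd or 40 genes that differ between the strains went against the label. These are replicates 4 and 5 of the group labelled BALB/c Af 24 h, replicate 6 of BALB/c Af 168 h with ozone, and replicate 1 of Af 96 h with ozone in both C57BL/6 and SP-D-/-. For the BALB/c Af 24 h pair, Sftpd was 8.79 and 7.68 and the index of strain genes 0.03 and 0.39, where matching BALB/c arrays ran from 0.41 to 1.03 and matching C57BL/6 arrays from -1.03 to -0.21. That pair had alveolar type 2 means of 9.52 and 7.78, where matching BALB/c arrays ran from 10.14 to 10.90. What lowered Sftpd on the pair was not tested. Results at Af 24 h in BALB/c and at Af 96 h in C57BL/6 and SP-D-/- are given with them, and the total counts of members and those of the other gene lists described also without them. The mean of 10 hybridization controls, a measure of array signal, ran from 7.86 to 11.76 over the arrays, and the 3' minus 5' actin difference, a measure of RNA quality, from 0.87 to 4.64. Across the 89 arrays the mean of the 38 members had a Pearson r of -0.11 with the first and -0.13 with the second.

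At 24 h after allergen the mean of the ciliary genes was lower than in air in every strain. In C57BL/6 the mean of the 38 members was 5.67, 5.08, 5.29 and 5.20 on the 4 Af 24 h arrays, against 6.15 to 6.45 on the 6 air arrays (median 6.35). In SP-D-/- it ran from 5.03 to 5.84 (median 5.45, n = 6), against 6.61, 6.56, 6.71, 6.98 and 6.75 in air. In BALB/c it was 4.94, 5.12, 5.03, 5.44 and 4.80, against 5.70, 5.88, 5.90, 6.07 and 6.22 in air. In each strain all Af 24 h arrays lay below all air arrays, also without the 2 BALB/c arrays in doubt.

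**Figure D1:**
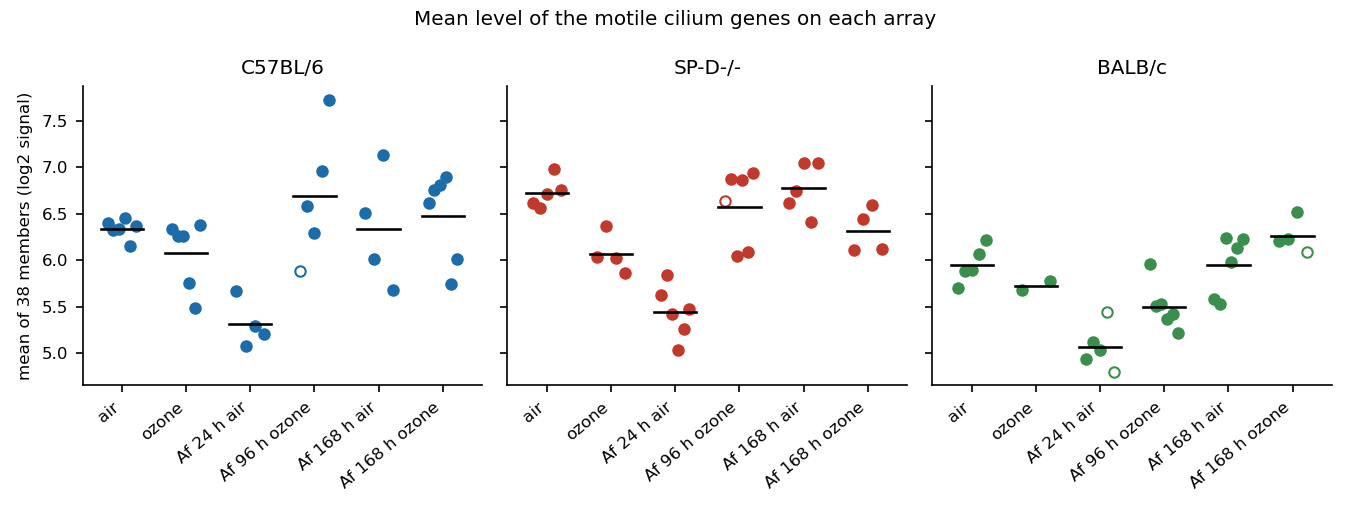
Mean log2 signal of the 38 members tested on each of the 89 arrays, by strain (panel) and exposure. Points are arrays, bars are group means and open points are the 5 arrays that go against their label. The Af 24 h group means are the lowest of each strain, at 5.31, 5.44 and 5.07. Single arrays overlap with C57BL/6 ozone and BALB/c Af 96 h with ozone, and the Af 168 h arrays lie around the air level.

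Tested gene by gene with limma over all 15065 genes (Benjamini-Hochberg, adjusted p under 0.05), 20 of the 38 members fell in C57BL/6 and Dnaaf1 rose, where 9.78% of all genes tested were called lower and 6.40% higher. In SP-D-/- 26 fell and none rose, with 3.11% of all genes lower. In BALB/c 16 fell and none rose, with 8.13% of all genes lower. The median change of the members was -1.15, -1.44 and -0.92 (log2) in that order, beside medians of -0.00, 0.01 and -0.01 over all genes. The Af 24 h arrays lay wholly below the air arrays for 18, 24 and 18 members, which held for 8.70%, 6.15% and 7.25% of all genes. Without the 2 BALB/c arrays in doubt the count in BALB/c was 8, with a median of -0.90 from 3 arrays. The calls over all genes there went from 1816 to 680. Foxj1, Ccdc113, Drc1, Hydin, Tekt1, Tekt2, Tppp3 and Ak8 were no longer called in limma (adjusted p from 0.0644 to 0.188).

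The same 14 members fell in all 3 strains: Foxj1, Ccdc40, Ccdc113, Drc1, Drc3, Rsph4a, Lrrc23, Hydin, Tekt1, Tekt2, Cfap126, Tppp3, Hoatz and Ak7. They were 14 of the 20, 14 of the 26 and 14 of the 16 that fell. Of the 14, 7 were not called in BALB/c without the arrays in doubt. When each array was left out in turn, 11 of 21 calls in C57BL/6 held in every fit. In SP-D-/- 20 of 26 did, and in BALB/c 8 of 16. Of the 14 members, only Ccdc113, Drc3, Hoatz and Lrrc23 held in every such fit in each strain. The share of all genes called lower in all 3 strains was not counted. The strains share no arrays, but a single fit gave each gene the same spread for every strain, so the 3 calls are not independent. In all, 28 members were called in at least 1 strain, Dnaaf1 being the only one called higher. The 10 not called in any strain were Rfx2, Rfx3, Dnah11, Dnai2, Lrrc6, Ccdc39, Iqcg, Rsph9, Spag16 and Spag17. Rsph9 was among these although its changes were -1.54 ± 0.60, -1.52 ± 0.56 and -1.35 ± 0.59 (log2 ± SE, adjusted p from 0.0636 to 0.116), since its values spread widely within groups.

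**Figure D2:**
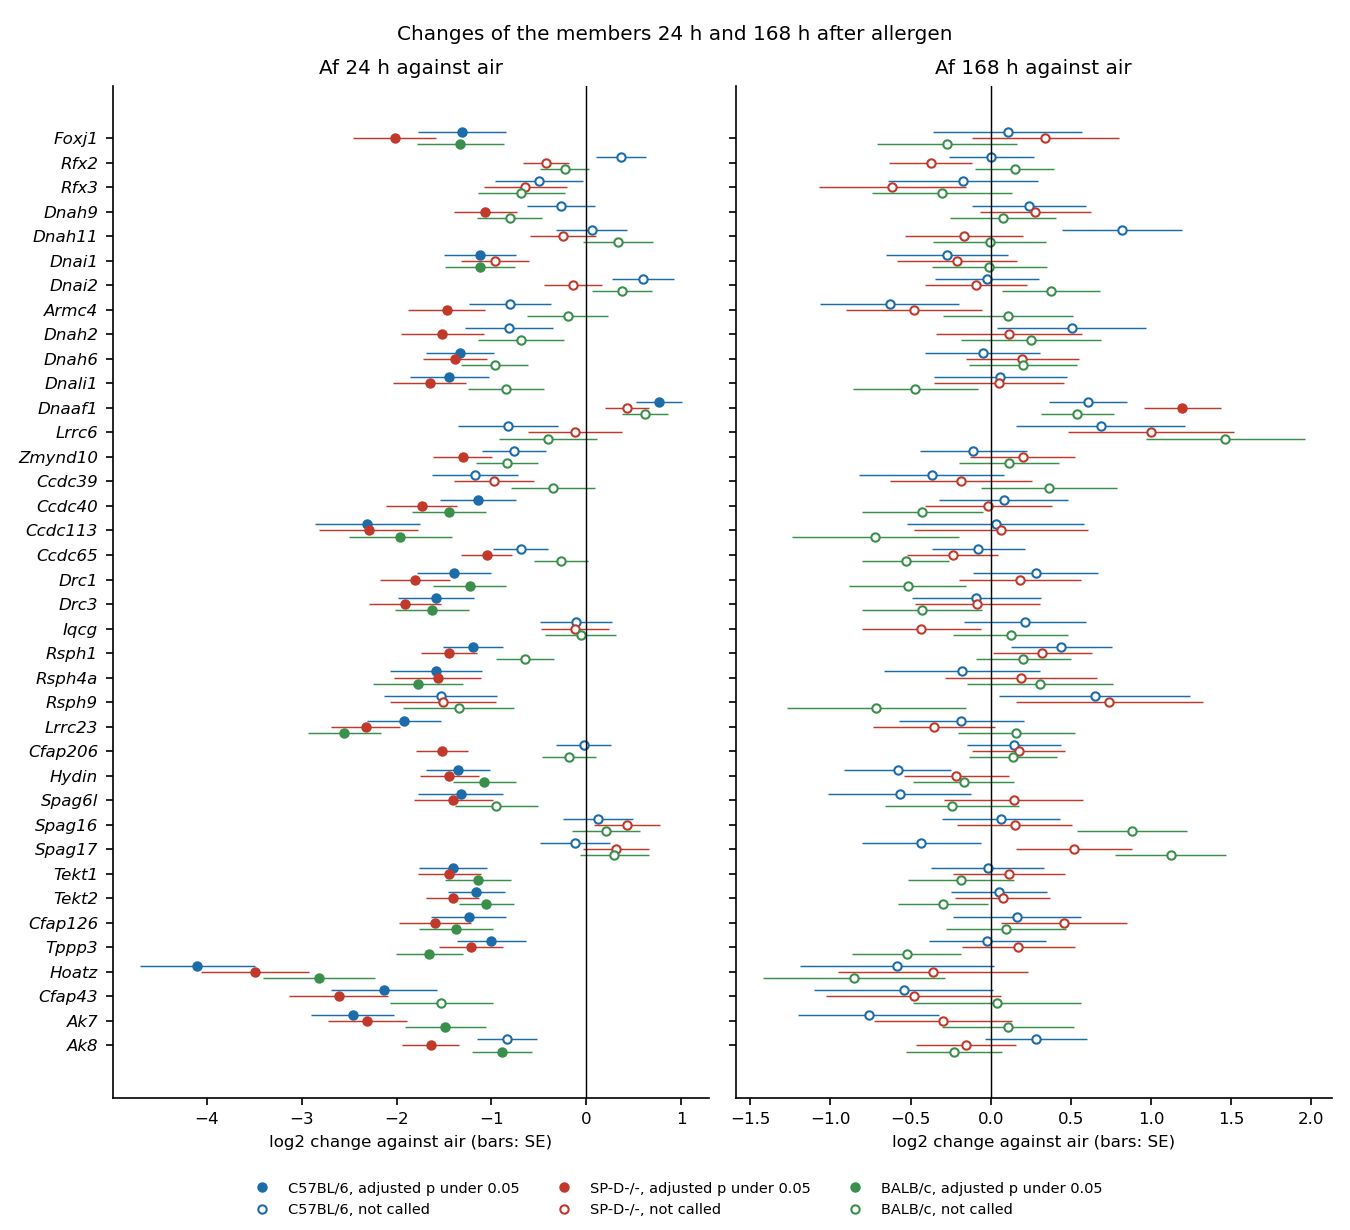
Change of each of the 38 members against air, 24 h (left) and 168 h (right) after allergen with air, in log2 units with the SE of the limma fit. Colours are strains and filled points have an adjusted p under 0.05. At 24 h the points lie to the left of 0 for 33, 35 and 33 of 38 members in C57BL/6, SP-D-/- and BALB/c, and at 168 h they scatter around 0 with 1 filled point, Dnaaf1 in SP-D-/-.

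Foxj1 encodes a regulator of the motile cilium programme. In C57BL/6 air it ran from 5.02 to 6.27 (median 5.72), and at Af 24 h it read 5.49, 4.11, 3.75 and 4.10. In SP-D-/- it read 5.56, 6.33, 6.54, 6.80 and 6.51 in air and 3.56 to 5.12 (median 4.26) at Af 24 h. In BALB/c it read 5.03, 5.45, 5.19, 5.37 and 5.64 in air and 3.45, 4.49, 4.21, 3.97 and 3.91 at Af 24 h. The groups overlapped through 1 high array in C57BL/6 and did not overlap in SP-D-/- or BALB/c. The changes were -1.31 ± 0.47 (adjusted p = 0.0432), -2.02 ± 0.44 (adjusted p = 0.002) and -1.33 ± 0.46 (adjusted p = 0.043) in limma. The call was lost in 8 of 10 fits that each left out 1 array in C57BL/6 (adjusted p up to 0.152), in 8 of 10 in BALB/c (up to 0.0916) and in 0 of 11 in SP-D-/-. Rfx3, an RFX factor that binds the X-box of ciliary promoters, changed by -0.50 ± 0.47, -0.65 ± 0.44 and -0.68 ± 0.46 and was not called (adjusted p from 0.315 to 0.463). In SP-D-/- its Af 24 h arrays, 6.41 to 7.46, still lay below the air arrays, 7.65 to 8.07. Rfx2 changed by 0.36 ± 0.26, -0.43 ± 0.25 and -0.23 ± 0.26, with the groups overlapping in each strain.

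Hoatz, a gene needed for normal axonemes of motile cilia, showed the lowest change of all members in each strain. In C57BL/6 it read 7.16 to 7.49 in air (median 7.33) and 3.06, 3.43, 3.49 and 2.94 at Af 24 h. In SP-D-/- it read 7.53, 7.62, 7.47, 8.09 and 7.71 in air and 3.42 to 5.65 (median 3.92) at Af 24 h. In BALB/c it read 6.08, 6.45, 6.50, 6.77 and 6.35 in air and 3.65, 3.54, 3.13, 3.6 and 4.14 at Af 24 h. No array of one group reached the other in any strain. It fell by 4.10 ± 0.61 in C57BL/6 (17.2-fold, adjusted p = 3.89e-06), by 3.50 ± 0.57 in SP-D-/- (11.3-fold, adjusted p = 4.13e-05) and by 2.82 ± 0.59 in BALB/c (7.05-fold, adjusted p = 0.000765). At Af 24 h Hoatz was above the level of 4.45 on 0 of 4, 2 of 6 and 0 of 5 arrays, so the size of the fold rests on dim signals. Foxj1 was above it on 1 of 4, 2 of 6 and 1 of 5 arrays, and Ccdc113 on 0 of 4, 1 of 6 and 0 of 5. Hydin and Cfap43 were each above it on 1 of 4, 4 of 6 and 0 of 5. The sizes of their falls are limited in the same way on arrays below the level.

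**Figure D3:**
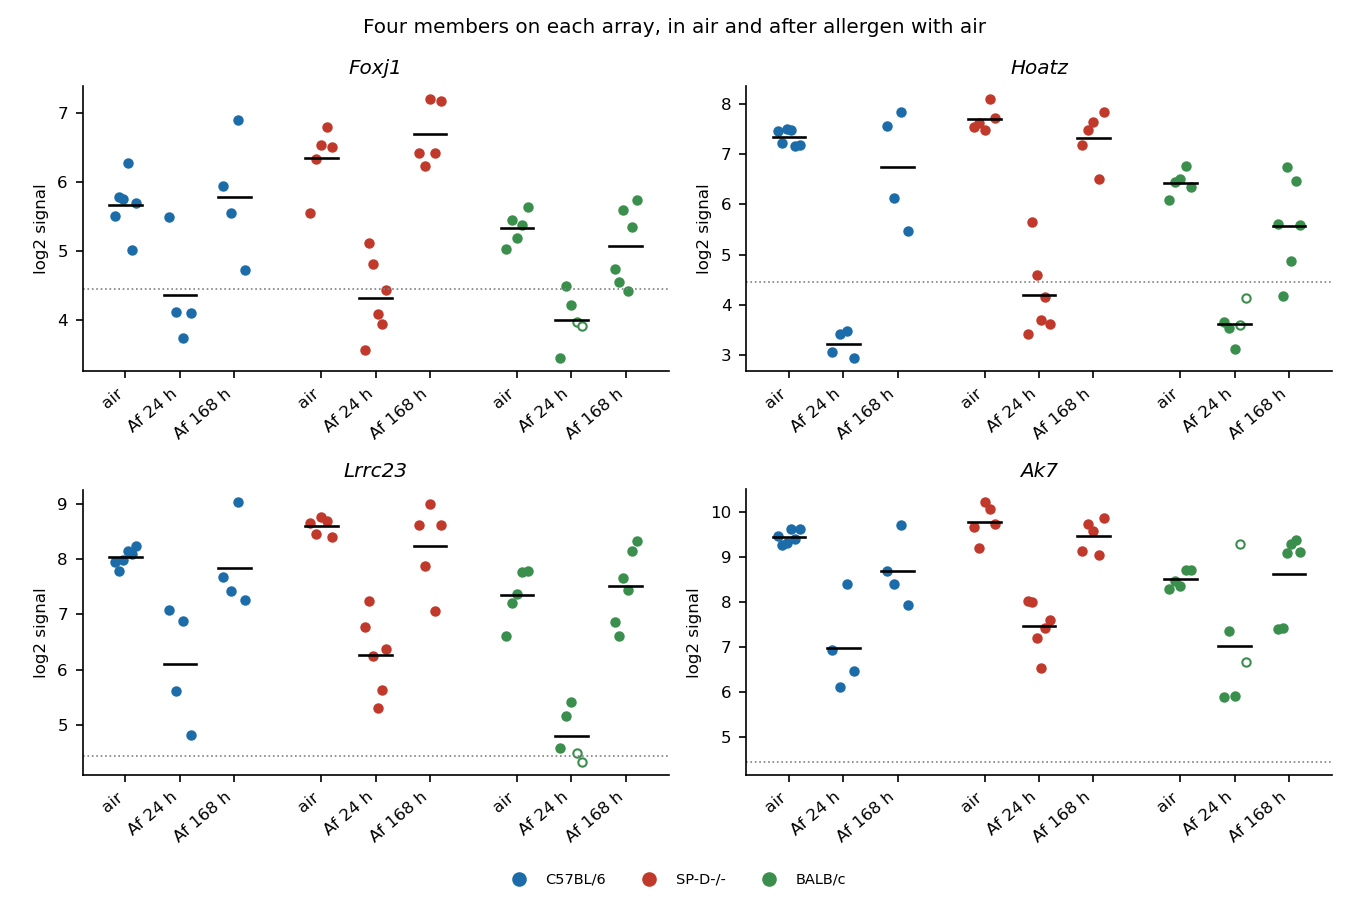
Log2 signal of Foxj1, Hoatz, Lrrc23 and Ak7 on each array in air, at Af 24 h and at Af 168 h with air, by strain (colour). Bars are group means, the dotted line is the level of 4.45 used for testing, and open points are arrays that go against their label. Hoatz drops to 2.94 to 3.49 in C57BL/6 at 24 h and reads 5.47 to 7.84 at 168 h, with some arrays still below all air arrays.

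Of the 5 radial spoke genes, which relay signals from the central pair to the dynein arms, 3 fell in C57BL/6, 4 in SP-D-/- and 2 in BALB/c (medians -1.54, -1.52 and -1.35). Lrrc23, a radial spoke protein, read 7.77 to 8.24 in C57BL/6 air (median 8.04) and 7.08, 5.61, 6.89 and 4.82 at Af 24 h. In BALB/c it went from 6.61, 7.20, 7.37, 7.77 and 7.78 to 4.58, 5.16, 5.42, 4.49 and 4.34. Its groups did not overlap in either strain, nor in SP-D-/-, where air arrays read 8.39 to 8.76 and Af 24 h arrays 5.30 to 7.24 (median 6.32). Lrrc23 fell by 1.93 ± 0.39, 2.33 ± 0.37 and 2.55 ± 0.38 (adjusted p = 0.000492, 2.42e-05 and 4.21e-06), and by 2.30 in BALB/c without the 2 arrays in doubt (adjusted p = 0.000471). Rsph4a, of the spoke head, fell by 1.59 ± 0.49, 1.57 ± 0.46 and 1.77 ± 0.48.

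All 4 microtubule and lumen genes tested fell in each strain (medians -1.20, -1.43 and -1.26). Without the BALB/c arrays in doubt, Tekt1, Tekt2 and Tppp3 were not called in BALB/c. In C57BL/6 Tppp3 lost its call in 9 of 10 limma fits that each left out 1 array (adjusted p up to 0.163). Tekt1 and Tekt2 encode tektins, filaments that run along the doublets, Cfap126 helps to place cilia, and Tppp3 binds tubulin. Tppp3 read 8.64 to 9.23 in C57BL/6 air (median 8.93) and 8.31, 7.95, 7.42 and 8.03 at Af 24 h, a fall of 1.00 ± 0.36 (adjusted p = 0.0462). In SP-D-/- it read 8.93, 8.62, 9.40, 9.57 and 9.62 in air and 7.55 to 8.49 (median 8.02) after allergen, a fall of 1.22 ± 0.34. In BALB/c it read 9.04, 9.14, 9.04, 8.94 and 9.07 in air and 8.69, 7.76, 7.84, 7.49 and 5.18 at Af 24 h. The lowest of these is replicate 5, in doubt, and the BALB/c change of -1.66 ± 0.36 became -0.95 (adjusted p = 0.109) without replicates 4 and 5.

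Of the 7 genes of the axonemal ruler and the nexin-dynein regulatory complex, 4 fell in C57BL/6, 5 in SP-D-/- and 4 in BALB/c. Ccdc113, which is tied to this complex, fell by 2.31 ± 0.55, 2.30 ± 0.52 and 1.96 ± 0.54, and Drc3 by 1.58 ± 0.40, 1.91 ± 0.38 and 1.63 ± 0.39. Ccdc40, 1 of the pair of ruler proteins that set the spacing of dynein arms and spokes, fell by 1.14 ± 0.40, 1.74 ± 0.38 and 1.45 ± 0.39. Its partner Ccdc39 was not called. Ccdc39 read 7.86 to 8.52 in C57BL/6 air (median 8.07) and 6.25, 7.22, 7.15 and 7.24 at Af 24 h, groups that do not overlap, with a change of -1.17 ± 0.45 (adjusted p = 0.0612). A dimmer probe set of Ccdc39 changed by -1.94, -1.16 and -0.91.

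Dynein arm genes gave a mixed picture. The 3 inner arm genes changed by -0.82 to -1.44 in C57BL/6, where 2 fell, by -1.38 to -1.65 in SP-D-/-, where all 3 fell, and by -0.69 to -0.97 in BALB/c, where none was called. Dnah6, an inner arm heavy chain, read 7.00 to 7.62 in C57BL/6 air (median 7.30) and 6.05, 5.36, 6.33 and 6.16 at Af 24 h. It fell by 1.33 ± 0.36 in C57BL/6 and 1.38 ± 0.34 in SP-D-/-, and in BALB/c it changed by -0.97 ± 0.35 (adjusted p = 0.0582) with no overlap of the groups. Of the 5 outer arm genes tested, Dnai1, an intermediate chain, fell in C57BL/6 and BALB/c, by 1.12 ± 0.38 and 1.12 ± 0.37, and Dnah9 and Armc4 fell in SP-D-/-, by 1.06 ± 0.33 and 1.47 ± 0.41. Dnah11, a heavy chain of the proximal outer arm, changed by 0.06 ± 0.38, -0.25 ± 0.35 and 0.33 ± 0.37. Its arrays overlapped in each strain, with 4.78 to 6.30 in C57BL/6 air and 6.59, 5.90, 4.81 and 6.04 at Af 24 h.

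The central pair genes split in the same way. Hydin, a central pair protein, fell by 1.35 ± 0.34, 1.44 ± 0.31 and 1.07 ± 0.33, and Spag6l fell by 1.33 ± 0.45 in C57BL/6 and 1.40 ± 0.42 in SP-D-/-. Spag6l read 5.99 to 6.69 in C57BL/6 air (median 6.28) and 6.28, 4.47, 4.87 and 4.25 at Af 24 h. Its groups overlapped through 1 high array in each strain. In SP-D-/- that array, replicate 1, read 7.32 against 4.36 to 5.03 on the other 5, and in BALB/c it was replicate 4, in doubt, at 6.57. Spag16 and Spag17 changed by -0.12 to 0.43 and were not called.

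Among the remaining genes, the adenylate kinases Ak7 and Ak8, which handle energy in the axoneme, and Cfap43 were lower. Ak7 read 9.25 to 9.63 in C57BL/6 air (median 9.43) and 6.93, 6.12, 8.40 and 6.47 at Af 24 h. In SP-D-/- it read 9.66, 9.20, 10.21, 10.06 and 9.72 in air and 6.54 to 8.02 (median 7.51) at Af 24 h. In BALB/c it read 8.29, 8.47, 8.36, 8.70 and 8.72 in air and 5.88, 7.36, 5.92, 9.28 and 6.66 at Af 24 h. The BALB/c groups overlapped through replicate 4, an array in doubt at 9.28, and were apart without it. Ak7 fell by 2.46 ± 0.44, 2.31 ± 0.41 and 1.49 ± 0.43 (adjusted p = 9.66e-05, 0.000209 and 0.0154), and by 2.12 in BALB/c without the arrays in doubt (adjusted p = 0.00153). Cfap43 fell by 2.13 ± 0.56 in C57BL/6 and 2.61 ± 0.52 in SP-D-/-, and its change in BALB/c of -1.53 ± 0.55 had an adjusted p of 0.0525. Ak8 fell in SP-D-/- and BALB/c, by 1.64 ± 0.30 and 0.89 ± 0.31.

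Among the assembly factors the reading depended on the probe set. Dnaaf1 rose in C57BL/6 by 0.76 ± 0.24 (adjusted p = 0.0244), from 5.43 to 5.81 in air (median 5.57) to 5.76, 6.14, 6.82 and 6.68, and changed by 0.43 ± 0.23 and 0.62 ± 0.24 in the other strains. A second Dnaaf1 probe set, with a mean of 4.95 against 6.17, changed by -0.99, -1.40 and -0.90. Dimmer probe sets of Dnai2, Iqcg and Spag16 changed by -1.28, -1.71 and -0.58, by -0.64, -1.41 and -1.01, and by -1.64, -1.84 and -1.01, where the sets used changed by -0.14 to 0.60. Of these, the Dnai2 and Spag16 sets had means of 3.23 and 3.48, under the 4.45 level, and the other dimmer Spag16 sets changed by 0.10, 0.02 and -0.08 and by -0.14, 0.18 and 0.60. A dimmer Dnah2 set (mean 3.61) changed by 0.88, 0.59 and 1.03, where the set used changed by -0.82, -1.52 and -0.69. A dimmer Lrrc6 set (mean 3.66) changed by -1.05, -1.63 and -0.51, where the set used changed by -0.83, -0.12 and -0.40. These other sets were chosen for display after their values were seen and carry no test. Of 19 further probe sets of the members, 5 had an r over 0.5 with the mean of the other members within groups. Zmynd10, an assembly factor, fell in SP-D-/- by 1.30 ± 0.31, and Lrrc6 was not called, with 8.06, 4.99, 4.52 and 5.34 at Af 24 h in C57BL/6 against 6.05 to 6.90 in air.

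**Figure D4:**
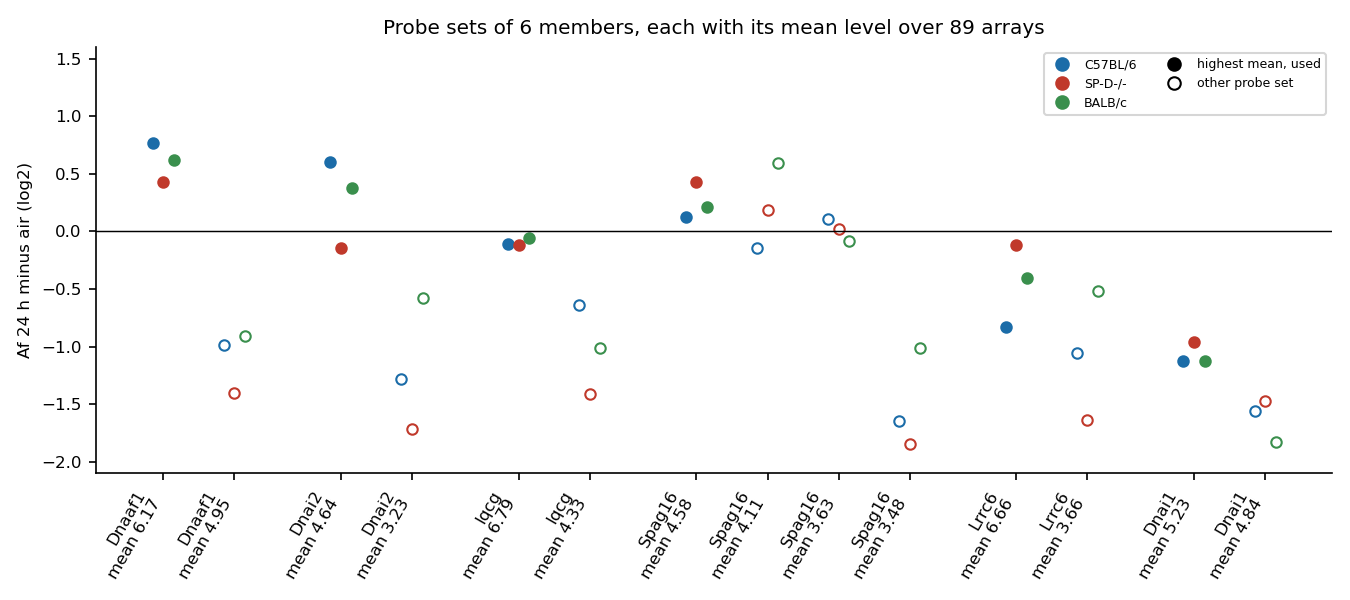
Change from air to Af 24 h (log2, y axis) of each probe set of 6 members, labelled with its mean level over the 89 arrays. Colours are strains, filled points are the probe sets used and open points the others. For Dnaaf1 the set used lies at 0.43 to 0.76 and the dimmer set at -1.40 to -0.90.

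Promoter sequence was compared because 14 members fell together. RefSeq (GRCm38.p6) promoters, 250 bases before to 50 after the start, were matched for 35 of the 45 named members. The X-box of RFX factors was searched on both strands in a strict form, GTTNCC and GGNAAC with 0 to 3 bases between them. This form was in 0 of 35 member promoters and in 0.936% of 27025 genes. Looser forms were not searched, so the count does not show that these promoters lack an X-box. Its half-site GTTGCC, or GGCAAC on the other strand, was in 14 of 35 member promoters, and in 3821 of the 27025 (14.1%). The forkhead motif TGTTTAC was in the promoters of Cfap43 and Ak7, 2 of 35 (5.71%), and in 4.05% of all genes. The half-site can lie within an X-box, and a match of letters is no evidence of binding. Shown here are the 100 bases before the start, 5' to 3' on the gene's strand, of the 7 tested members with the half-site in the last 60 bases, with half-sites in capitals. Further starts of Tekt1 and Tekt2, not shown, had no half-site in the last 60 bases. The first 6 fell in all 3 strains at Af 24 h, and Iqcg was not called in any. The share of all promoters with a half-site in the last 60 bases was not counted. Over the 12 tested members with a half-site anywhere in the promoter, 6 fell in all 3 strains, and Rfx2, Rfx3, Zmynd10, Spag6l and Spag16 did not. So did 14 of all 38 tested, of which only 29 had a matched promoter. Of the 6 with a half-site that fell, 5 were not called in BALB/c without the arrays in doubt, Lrrc23 being the exception.
Ccdc113, chr8:95534000-95534099, plus strand: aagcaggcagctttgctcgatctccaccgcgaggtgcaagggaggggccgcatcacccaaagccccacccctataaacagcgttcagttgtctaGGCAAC
Drc1, chr5:30281293-30281392, plus strand: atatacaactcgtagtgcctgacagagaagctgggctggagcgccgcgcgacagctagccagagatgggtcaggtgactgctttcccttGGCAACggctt
Lrrc23, chr6:124779728-124779827, minus strand: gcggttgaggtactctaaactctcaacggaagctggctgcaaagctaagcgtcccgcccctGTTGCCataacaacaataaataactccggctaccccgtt
Hydin, chr8:110266877-110266976, plus strand: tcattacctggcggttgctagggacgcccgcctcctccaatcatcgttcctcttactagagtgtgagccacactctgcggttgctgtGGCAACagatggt
Tekt1, chr11:72361883-72361982, minus strand: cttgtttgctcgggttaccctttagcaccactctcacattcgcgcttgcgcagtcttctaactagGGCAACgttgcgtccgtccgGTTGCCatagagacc
Tekt2, chr4:126325689-126325788, minus strand: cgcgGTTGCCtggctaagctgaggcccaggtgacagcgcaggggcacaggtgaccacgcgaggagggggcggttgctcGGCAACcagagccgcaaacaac
Iqcg, chr16:33056187-33056286, minus strand: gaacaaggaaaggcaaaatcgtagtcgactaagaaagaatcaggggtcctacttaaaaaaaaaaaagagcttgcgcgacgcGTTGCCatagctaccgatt
In these windows the half-site nearest the start begins 6 (Ccdc113), 11 (Drc1), 39 (Lrrc23), 13 (Hydin), 15 (Tekt1), 22 (Tekt2) and 19 (Iqcg) bases before it.

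The response at 24 h was also compared between strains. The test of the difference in response called none of the 38 members for SP-D-/- against C57BL/6 (2 at an unadjusted p under 0.05, limma) and none for BALB/c against C57BL/6 (0 unadjusted), where 0% and 0.0133% of all genes were called. The median differences were -0.25 and 0.12. For Foxj1 the response in SP-D-/- minus that in C57BL/6 was -0.71 (95% interval -1.98 to 0.56), and for Hoatz 0.61 (-1.05 to 2.26), and both intervals include differences in either direction. Cfap206, a radial spoke gene, had the lowest unadjusted p. It fell by 1.52 ± 0.28 in SP-D-/- and changed by -0.03 ± 0.29 in C57BL/6, a difference of -1.49 ± 0.40 with an adjusted p of 0.916.

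Other genes of the cilium, on lists written with earlier results known, were tested alongside. Of 52 further motile cilium genes, 19 fell in C57BL/6, 28 in SP-D-/- and 13 in BALB/c, and none rose (medians -0.88, -1.03 and -0.39). Tmem212, a gene of multiciliated cells, fell by 3.13 ± 0.51, 2.83 ± 0.48 and 3.21 ± 0.50. Of 27 intraflagellar transport genes, which serve all cilia, 7, 5 and 1 fell and none rose. Of 14 genes of multiciliation and centriole amplification, the steps before cilia grow, none fell and Cep63 rose in C57BL/6 and BALB/c, by 0.94 ± 0.30 and 0.84 ± 0.30 (adjusted p = 0.0261 and 0.0494). Without the BALB/c arrays in doubt, 9 of the 52 motile cilium genes, 0 of the 27 intraflagellar transport genes and 0 of the 14 multiciliation genes were called in BALB/c.

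Markers of other airway and lung cells moved at the same time. Of 13 club and secretory cell genes 8, 9 and 11 fell (medians -2.21, -2.43 and -2.21). Their mean ranged from 9.71 to 10.22 in C57BL/6 air and from 7.43 to 9.39 at Af 24 h, from 10.05 to 10.50 and 7.44 to 9.37 in SP-D-/-, and from 9.13 to 9.81 and 5.51 to 8.16 in BALB/c. Of 7 basal cell genes none was called in any strain. Of 10 alveolar type 1 genes 0, 0 and 6 fell, of 8 alveolar type 2 genes 1, 2 and 5, and of 8 endothelial genes 3, 0 and 5. Without the 2 BALB/c arrays in doubt, 9 of 13 club and secretory genes fell in BALB/c (median -2.29), and 0 alveolar type 1, 0 alveolar type 2 and 0 endothelial genes were called. On those 2 arrays the alveolar type 1 mean was 8.53 and 7.04 and the endothelial mean 6.36 and 5.53, against 9.79 to 9.94 and 8.13 to 8.38 on the other 3 and 9.92 to 10.34 and 8.33 to 8.94 in air. Their part in the changes of ciliary genes was not tested. The actin difference also differed at Af 24 h, without overlap in C57BL/6 and SP-D-/-, at 2.08 to 3.32 against 1.45 to 1.87 in C57BL/6 air, 2.20 to 3.01 against 1.63 to 2.09 in SP-D-/-, and 0.87 to 3.66 against 1.43 to 2.34 in BALB/c. With array signal and the actin difference as covariates and without the 5 arrays in doubt, 6, 23 and 3 members fell (medians -0.88, -1.30 and -0.73). Over all genes 512, 631 and 320 were called in that fit, in either direction. Hoatz, Lrrc23 and Ak7 kept their call in C57BL/6 in that fit, as did Dnah6, Rsph1 and Rsph4a, and Lrrc23, Ak7 and Cfap126 kept theirs in BALB/c.

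At 168 h after allergen the members' means lay around those in air. In C57BL/6 their mean was 6.51, 6.02, 7.13 and 5.68 on the 4 arrays, a wider spread than the 6.15 to 6.45 in air. It was 6.62, 6.75, 7.04, 6.41 and 7.05 in SP-D-/- and 5.53 to 6.24 (median 6.06) in BALB/c. Against air, limma called 0 members in C57BL/6 (2 unadjusted), 1 in SP-D-/- (1 unadjusted) and 0 in BALB/c (4 unadjusted), where 1.35%, 1.35% and 1.56% of all genes were called (0.750% lower in BALB/c). The median changes were -0.01, 0.07 and 0.06. The 1 call was Dnaaf1 in SP-D-/-, which rose by 1.20 ± 0.24 (adjusted p = 0.00457), from 5.27, 5.67, 5.84, 5.64 and 5.60 to 6.45, 7.13, 6.43, 7.45 and 6.54. It was not called without SP-D-/- Af 168 h replicate 5. The actin difference at Af 168 h with air was 2.27 to 3.22, 2.12 to 3.74 and 2.26 to 3.28, above its air range in C57BL/6 and SP-D-/- and overlapping it in BALB/c.

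Set against Af 24 h, 2 members rose in C57BL/6, 25 in SP-D-/- and 9 in BALB/c, with 0.133%, 1.19% and 2.75% of all genes called higher (0.186%, 1.36% and 4.36% in either direction, 1.61% lower in BALB/c). These comparisons share the Af 24 h arrays with those against air. The median rises were 1.17, 1.52 and 0.87. Hoatz was called in all 3 strains. It read 7.54, 6.12, 7.84 and 5.47 in C57BL/6 at 168 h and rose by 3.52 ± 0.66 (adjusted p = 0.0054). In SP-D-/- it read 7.17, 7.47, 7.64, 6.50 and 7.83 and rose by 3.13 ± 0.57 (adjusted p = 0.000289), and in BALB/c it read 4.18 to 6.75 (median 5.60) and rose by 1.96 ± 0.57 (adjusted p = 0.0309). Within each strain no Af 24 h array reached these levels. Without the 2 BALB/c arrays in doubt the rise there was 2.13 with an adjusted p of 0.109.

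The other call in C57BL/6 was Rsph1, a radial spoke gene, which rose by 1.63 ± 0.35 (adjusted p = 0.0156). Foxj1 rose by 2.36 ± 0.44 in SP-D-/- (adjusted p = 0.00032), to 6.41, 6.24, 7.20, 6.42 and 7.17, and changed by 1.41 ± 0.51 in C57BL/6 and 1.06 ± 0.44 in BALB/c (adjusted p = 0.181 and 0.155). Lrrc23 rose by 1.97 ± 0.37 in SP-D-/- and 2.71 ± 0.37 in BALB/c (adjusted p = 0.00032 and 7.58e-07). In C57BL/6 it read 7.68, 7.42, 9.02 and 7.26, all above its Af 24 h arrays, with a change of 1.74 ± 0.43 (adjusted p = 0.0553). The further calls in BALB/c were Rsph4a, Lrrc6, Ak7, Cfap126, Drc3, Dnah6 and Tppp3, with rises from 1.13 to 2.08. In SP-D-/- the 25 included all 3 inner arm genes and all 4 microtubule and lumen genes, with Cfap206 up by 1.69 ± 0.28 (adjusted p = 4.64e-05). The C57BL/6 count went to 0 without Af 168 h replicate 4 and to 8, 4, 6 and 6 without Af 24 h replicates 3, 4 and 6 and Af 168 h replicate 6. The BALB/c count went to 4 without Af 24 h replicate 5, to 5, 3 and 5 without Af 168 h replicates 3, 5 and 6, and to 4 without both arrays in doubt. Over all genes, leaving out 1 array gave 1 to 650 calls in C57BL/6 and 295 to 852 in BALB/c.

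**Figure D5:**
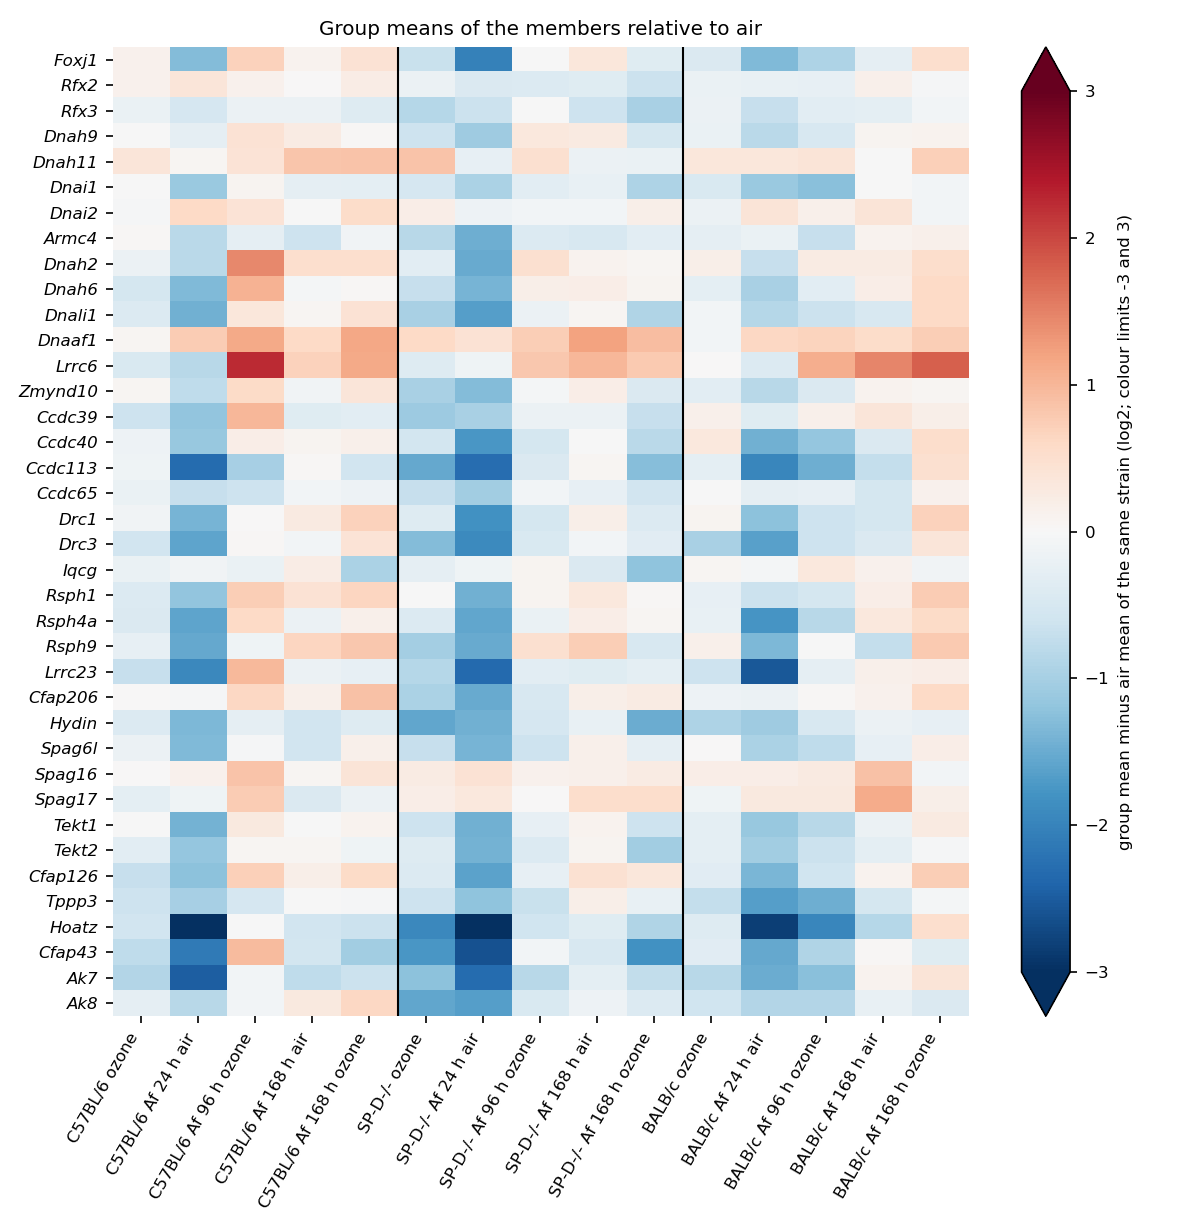
Group mean of each of the 38 members minus its air mean in the same strain (log2 colour scale from -3 to 3), for 15 groups in columns. The Af 24 h column is the bluest of each strain, with Hoatz at -4.10, -3.50 and -2.82, and the C57BL/6 Af 96 h column holds the reddest cell, Lrrc6.

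Ozone without allergen was set against air. Limma called 0 of 38 in C57BL/6 (2 unadjusted, median -0.20) and 0 in BALB/c (1 unadjusted, median -0.21, 2 ozone arrays), where 0.0266% and 0.0133% of all genes were called. In SP-D-/- the mean of the members was 6.03, 6.37, 6.03 and 5.86 on the 4 ozone arrays, all below the air arrays. There 33 of 38 members were below 0, with a median of -0.64 beside -0.08 over all genes, and 13 did not overlap, which held for 5.88% of all genes. Hydin and Ak8 were the 2 called lower, as were 0.0929% of all genes (0.0996% in either direction), and 15 members had an unadjusted p under 0.05. Hydin read 4.01, 5.15, 4.28 and 3.91 with ozone against 6.39, 5.86, 5.75, 5.86 and 5.64 in air, a fall of 1.56 ± 0.35 (adjusted p = 0.0279). Ak8 read 3.85, 4.69, 4.58 and 4.34 against 5.96, 5.72, 5.77, 6.32 and 5.83, a fall of 1.55 ± 0.33 (adjusted p = 0.0172). Hoatz read 5.08, 6.64, 7.25 and 4.01 with ozone, below its air arrays, with a change of -1.94 ± 0.63 (adjusted p = 0.154).

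Array signal and RNA quality differed in the same comparison. The SP-D-/- ozone arrays had hybridization control levels of 11.09, 8.54, 10.45 and 11.43 and actin differences of 2.72, 2.27, 2.80 and 3.22, against medians of 8.29 and 1.88 in air. No member was called with array signal as a covariate, without the 5 arrays in doubt (median -0.55). The count was 1 without SP-D-/- air replicate 2, 3 or 4 or ozone replicate 4, and 0 without ozone replicate 2 or 5. Over all genes, leaving out 1 array gave 1 to 454 calls. Club cell genes had a median of -1.24 in this comparison, with 0 of 13 called.

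At 96 h after allergen, all groups also breathed ozone and were set against ozone alone. In C57BL/6 the members' mean was 5.89, 6.58, 6.29, 6.96 and 7.73, against 5.49 to 6.38 (median 6.26) with ozone alone. Of 38 members 11 rose and none fell, in a comparison where 36.4% of all genes were called, 17.2% higher and 19.2% lower. For 4 members the Af 96 h arrays lay wholly above the ozone arrays, which held for 6.64% of all genes. The 11 that rose were Lrrc6, Cfap43, Lrrc23, Ccdc39, Dnah2, Dnah6, Cfap126, Rsph1, Dnaaf1, Spag17 and Spag16, in order of size. The sets used for Dnaaf1, Spag17 and Spag16 had an r of -0.24, 0.11 and -0.06 with the other members within groups. Other probe sets of these genes are not given at 96 h. Spag16 lost its call in 8 of 11 limma fits that each left out 1 array (adjusted p up to 0.15). Lrrc6, a dynein arm assembly factor, read 6.65, 9.38, 9.28, 9.0 and 9.58, where ozone arrays read 5.54 to 6.63 (median 6.12). It rose by 2.69 ± 0.50 (6.46-fold, adjusted p = 3.27e-05), and the lowest of its 5 values is replicate 1, an array in doubt, without which the rise was 3.22. These Lrrc6 values are from its brighter probe set, and its dimmer set is not given at 96 h. Ccdc39 read 8.67, 9.10, 8.80, 9.13 and 10.02 against 6.86 to 8.09 and rose by 1.63 ± 0.42 (adjusted p = 0.00241). Lrrc23 rose by 1.68 ± 0.37, to 8.05, 8.82, 8.32, 9.63 and 10.24, also without overlap. Cfap43 rose by 1.71 ± 0.52 with an SD of 1.88 in the group. Without replicate 1 the C57BL/6 count was 14, and leaving out any 1 array gave 4414 to 6267 calls over all genes.

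Other measures moved in this comparison. The actin difference was 2.57 to 3.22 at Af 96 h against 1.48 to 2.01 with ozone alone, without overlap. Hybridization controls read 10.30 to 11.51 against 7.86 to 8.59 on 5 ozone arrays and 10.86 on the other. Of 10 alveolar type 1 genes 8 fell, with a list mean of 8.34 to 9.38 against 10.03 to 10.28, and all 8 endothelial genes fell, with 5.60 to 6.84 against 8.34 to 8.90. Both counts were also 8 without the arrays in doubt. With array signal and the actin difference as covariates, without the arrays in doubt, 11 members were called higher (median 0.95), while the calls over all genes went from 5480 to 1403. The part of these measures in the members' rise was otherwise not tested.

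Foxj1 (0.55 ± 0.44) and Hoatz (0.55 ± 0.57) were not called. Lrrc6, Ccdc39, Spag16 and Spag17 had not been called in any strain at 24 h. Of 14 multiciliation genes 7 rose and 1 fell in this comparison, led by Myb (1.87 ± 0.50) and Ccno (1.36 ± 0.35), both regulators of multiciliated cells, and Foxn4 (1.26 ± 0.26), and 8 of 10 goblet cell genes rose (median 2.12). Without the arrays in doubt 7 multiciliation genes rose and 0 fell, and 10 goblet genes rose. In SP-D-/- limma called 1 member, Ak8, higher by 1.09 ± 0.32 (adjusted p = 0.0442), with 2.58% of all genes called, 2.36% higher, and a members' median of 0.45. The ozone arrays in this comparison are those in which Ak8 was called lower than in air. Ak8 was not called without the arrays in doubt (1.03, adjusted p = 0.072), and no member was called when any single one of ozone replicates 2, 4 and 5 and Af 96 h replicates 1, 3, 4 and 5 was left out. Without ozone replicate 3, 5 members were called. Leaving out 1 array gave 41 to 1186 calls over all genes in this comparison, beside 389 in the main fit. In BALB/c, with 2 ozone arrays, limma called 0 members (3 unadjusted, median -0.24), with 0.0531% of all genes called.

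Ozone was also given to lungs 168 h after allergen. Limma called 0 of 38 in C57BL/6 (3 unadjusted, median 0.17), SP-D-/- (6 unadjusted, median -0.38) and BALB/c (9 unadjusted, median 0.28), where 0.0597% (0.00664% higher), 0.604% and 0.0199% (0.00664% lower) of all genes were called. Hydin and Tekt2 came nearest in SP-D-/-, with changes of -1.28 ± 0.35 and -1.13 ± 0.31 (adjusted p = 0.0564 and 0.0603). In SP-D-/- 2 members were called lower without the 5 arrays in doubt, 2 without Af 168 h with ozone replicate 3 and 1 without replicate 4. Over all genes 310 were called there without the 5 arrays in doubt, and 6 to 948 with 1 array left out. In BALB/c 0 members were called whichever array was left out, among them Af 168 h with ozone replicate 6, in doubt. Hoatz in C57BL/6 with ozone read 7.76, 7.67, 7.67 and 8.16 on 4 arrays and 4.44 and 4.38 on the other 2, replicates 5 and 6.

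The strains themselves were tested in air. No member was called for SP-D-/- or BALB/c against C57BL/6 (3 unadjusted each, limma), where 0.0664% (0.00664% lower) and 0.511% of all genes were called. In SP-D-/- 37 of 38 members were above C57BL/6 with a median of 0.37, and in BALB/c 34 were below it with a median of -0.37, beside medians of 0.02 and 0.04 over all genes. The member means did not overlap between SP-D-/- air (6.56 to 6.98) and C57BL/6 air (6.15 to 6.45). Lrrc6 was lowest in BALB/c air, at 4.28, 4.71, 4.63, 4.98 and 6.31 against 6.05 to 6.90 in C57BL/6, a change of -1.57 ± 0.50 (adjusted p = 0.236).

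Ordered over all 18 groups, the lowest means of the 38 members were Af 24 h in BALB/c (5.07 ± 0.24, mean ± SD, n = 5), C57BL/6 (5.31 ± 0.25, n = 4) and SP-D-/- (5.44 ± 0.28, n = 6). Next were BALB/c Af 96 h with ozone (5.50 ± 0.25, n = 6) and BALB/c ozone (5.73 ± 0.07, n = 2). The highest were C57BL/6 Af 96 h with ozone (6.69 ± 0.70, n = 5), SP-D-/- air (6.72 ± 0.16, n = 5) and SP-D-/- Af 168 h with air (6.77 ± 0.27, n = 5). Between neighbours in the full order, no gap was larger than the larger of their SDs.

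Within groups, after group means were removed, 29 of the 38 members had an r of at least 0.3 with the mean of the other members, with a median r of 0.57 over all 38. Among these were Drc3 (0.79), Foxj1 (0.78), Cfap126 (0.77) and Dnah9 (0.76). The 9 under 0.3 were Rfx2, Rfx3, Dnah11, Dnai2, Dnaaf1, Iqcg, Spag16, Spag17 and Ak8, of which Dnaaf1 was lowest (-0.24). Ak8 and Dnaaf1 apart, these were among the 10 members not called at 24 h. All correlations are over 89 arrays that share platform and tissue, and are given as a description.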

How the data were processed

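Expression was measured on Affymetrix HT Mouse430PM arrays, 89 in 18 groups. The authors deposited 1 table of log2 values in which every array has the same median (4.90); its method is not given in the sources used here, and base 2 was taken from the range of 1.86 to 13.5. Of 45141 probe sets, 28898 named 1 gene, 551 several and 15692 none. Each of 17097 genes was read from its probe set with the highest mean, and 15065 above the 40th percentile of all values (4.45) on at least 4 arrays were tested. Group means of all 89 arrays were fitted with limma 3.58.1 (lmFit, eBayes) in R 4.3.3, and p-values are two-sided, Benjamini-Hochberg adjusted over the genes tested, with a call at 0.05. The fit was tested on simulated Af 24 h arrays with 100 genes changed by a log2 of 1 and 100 by 2. For a change of 1 it called 25%, 32% and 37% in C57BL/6, SP-D-/- and BALB/c. For a change of 2 it called 80%, 91% and 89%, so a member not called may still have changed. The simulation changed no other genes and used independent normal noise, while 2437, 709 and 1816 genes were called in the data. The shares recovered in the data may therefore differ. Precision is limited by the 2 to 6 arrays a group.

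The members, lists and tests were chosen with earlier results of these data known. Members named with values on each array were 11 taken across the roles by a rule, Foxj1, Hoatz, Rfx3, Dnah11, Dnah6, Lrrc6, Ccdc39, Lrrc23, Spag6l, Tppp3 and Ak7, and others are named where called or to account for a count. Hybridization controls are 10 bioB and bioC probe sets. An array went against its label where Sftpd was under 9 in a wild type or over 8 in SP-D-/-, or where the index of 40 strain genes (16 higher in BALB/c), the median position between the C57BL/6 and BALB/c air means, had the sign of the other strain. Same-numbered arrays correlated above 0.1 in every pair in 1 comparison, C57BL/6 Af 168 h with ozone set against its air counterpart (mean 0.38 over 4 pairs), and the replicate block left the member count there at 0. Alternatives were cyclic loess, the mean of all probe sets, no filter, the block, leaving out the 5 arrays, covariates and leaving out each array.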

Additional observations from a re-analysis of the deposited data

Results flagged for a closer look

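Of 204 tests for a single array far from the rest of its group (mean of members and 11 members, groups of 4 to 6), 12 stood out, and chance gives about 1 in 20. Hoatz read 4.43 on C57BL/6 ozone replicate 5, where the next was 6.65. Rfx3 read 6.41 on SP-D-/- Af 24 h replicate 1, and Dnah11 read 4.44 on BALB/c Af 96 h with ozone replicate 1. Lrrc6 read 6.65 on C57BL/6 Af 96 h with ozone replicate 1 and 8.52 on BALB/c Af 168 h with ozone replicate 6, both on arrays that go against their label, and 8.44 on C57BL/6 Af 168 h replicate 4. Ccdc39 read 6.25 on C57BL/6 Af 24 h replicate 1, 4.40 on C57BL/6 Af 168 h with ozone replicate 5 and 5.33 on SP-D-/- ozone replicate 5. Spag6l read 5.58 on C57BL/6 ozone replicate 4 and 7.32 on SP-D-/- Af 24 h replicate 1. Tppp3 read 7.17 on C57BL/6 Af 168 h with ozone replicate 5.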

How the results depend on the processing

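Member counts that an alternative moved by more than 1.5 times are given first, with the ranges over left-out arrays. With array signal and actin difference as covariates, without the 5 arrays in doubt, Af 24 h against air gave 6 in C57BL/6 (21 in the main analysis) and 3 in BALB/c (16), Af 168 h against Af 24 h gave 5 in BALB/c (9), and ozone in SP-D-/- (2) and its Af 96 h comparison (1) gave 0. With array signal alone these last gave 5, 0 and 0. Without the 5 arrays only, Af 24 h in BALB/c gave 8, Af 168 h against Af 24 h gave 7 in C57BL/6 (2) and 4 in BALB/c, Af 96 h in SP-D-/- gave 0, and ozone at Af 168 h in SP-D-/- gave 2 (0). Cyclic loess gave 1 for Af 168 h against Af 24 h in C57BL/6 and 0 for Af 96 h in SP-D-/-, and the mean of probe sets gave 2 for the latter and 0 for Af 168 h against air in SP-D-/-. With that mean Dnaaf1 at Af 24 h in C57BL/6 was -0.11 (adjusted p = 0.782). The replicate block gave 2 for Af 96 h in SP-D-/-, 23 and 15 for Af 24 h in C57BL/6 and BALB/c, and 11 for Af 168 h against Af 24 h in BALB/c. Leaving out 1 array gave 0 to 8 and 3 to 12 for Af 168 h against Af 24 h in C57BL/6 and BALB/c, 14 to 21, 20 to 27 and 11 to 15 for Af 24 h in C57BL/6, SP-D-/- and BALB/c, 19 to 24 for Af 168 h against Af 24 h in SP-D-/- (25), 9 to 14 for Af 96 h in C57BL/6 (11), 0 to 3 for ozone and 0 to 5 for Af 96 h in SP-D-/-, 0 to 1 for Af 168 h against air in SP-D-/- and BALB/c, and 0 to 1 and 0 to 2 for ozone at Af 168 h in C57BL/6 and SP-D-/-. The cause of these moves was not tested. Of 114 single-gene calls, 92 kept their call with cyclic loess, 110 without the filter, 113 with the block, 100 without the 5 arrays, 94 with array signal and 73 with both covariates, and 102 of 113 with the mean of probe sets. Of 1205 refits of these calls that each left out 1 array, 993 kept the call. In comparisons with over 10 calls, counts over all genes moved by more than 1.5 times as follows. With both covariates they went from 2437 to 512 and from 1816 to 320 for Af 24 h in C57BL/6 and BALB/c, from 5480 to 1403 for Af 96 h in C57BL/6, from 204 to 35 for Af 168 h against air in C57BL/6, from 15 to 0 for ozone in SP-D-/-, from 91 to 229 for ozone at Af 168 h in SP-D-/-, from 77 to 146 for BALB/c against C57BL/6 in air, and from 657 to 281 and 205 to 446 for Af 168 h against Af 24 h in BALB/c and SP-D-/-. With array signal alone the same order gave 1141 for BALB/c Af 24 h, 2316, 721, 1, 192, 147, 278 and 411, with 514 of 204 for Af 168 h against air and 251 of 389 for Af 96 h in SP-D-/-. Without the 5 arrays they gave 680 for Af 24 h in BALB/c, 113 and 87 (28) for Af 168 h against Af 24 h in BALB/c and C57BL/6, 338, 327 and 386 (235) for Af 168 h against air in C57BL/6, SP-D-/- and BALB/c, and 310 for ozone at Af 168 h in SP-D-/-. The replicate block gave 45 for ozone in SP-D-/-. Leaving out 1 array gave 944 to 4076, 435 to 946 and 936 to 2381 for Af 24 h in C57BL/6, SP-D-/- (709) and BALB/c, 47 to 454, 13 to 282 and 71 to 379 for Af 168 h against air, and 1 to 650, 128 to 224 and 295 to 852 for Af 168 h against Af 24 h in the same order. For SP-D-/- the ranges were 1 to 454 for ozone, 41 to 1186 for Af 96 h and 6 to 948 for ozone at Af 168 h, and in C57BL/6 1 to 479 (9) for the last. Signal limits the size of changes, since at Af 24 h in C57BL/6 Hoatz and Ccdc113 were above 4.45 on 0 of 4 arrays.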

Other observations

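Among 13658 genes searched outside the lists, the genes whose level over the 89 arrays followed the mean of the 38 members best within groups were Chad (r = 0.80), A2ml1 (0.80), Lrrc51 (0.78), Cxcl17 (0.76), Acox2 (0.74), Adamdec1 (0.72), Erich2 (0.71) and Pigr (0.71). At Af 24 h, Chad fell by 1.64, 2.37 and 1.48 in C57BL/6, SP-D-/- and BALB/c, Cxcl17, a chemokine of mucosal surfaces, by 1.98, 2.57 and 1.98, and Adamdec1 by 1.48, 1.88 and 1.71, each called with limma in all 3 strains. In C57BL/6 Lrrc51 changed by -1.37 (adjusted p = 0.0315, limma). A2ml1, Acox2 and Erich2 changed by -1.24, -1.14 and -1.26 there and were not called (adjusted p = 0.152, 0.0539 and 0.0701, limma). Pigr, the receptor that carries IgA across epithelium, changed by -0.05 and -0.34 in C57BL/6 and BALB/c and fell by 1.69 in SP-D-/-.

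Within groups the mean of the members had an r of 0.96 with that of the other motile cilium genes, 0.78 with club and secretory genes, 0.70 with goblet genes and 0.55 with both multiciliation and intraflagellar transport genes. With alveolar type 1 and type 2 genes it was -0.03 and 0.04, and with basal genes 0.13. All arrays share platform and tissue, and the lists share no gene with the members.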
